A study of Homo sapiens with 8 samples.

Results

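The AP-1 transcription factors were followed in macrophage-like cells given epirubicin, LPS or both. The set holds 10 genes of the 17687 genes with a probe set of a single symbol on the array, chosen by symbol: the Fos genes FOS, FOSB, FOSL1 and FOSL2, the Jun genes JUN, JUNB and JUND, and ATF3, BATF and BATF3. Each had 1 probe set. THP-1, a human monocytic leukaemia line, was differentiated with the phorbol ester PMA at 100 ng/ml in all groups, the untreated group included. The 4 groups of 2 arrays each were untreated cells, cells with LPS at 100 ng/ml for 3 h, cells with epirubicin at 0.25 µg/ml for 24 h, and cells with both. In the group with both, LPS followed the epirubicin treatment, per the methods of the study. LPS, a bacterial cell wall component, activates the receptor TLR4, and epirubicin is an anthracycline that intercalates into DNA and poisons topoisomerase II. Values are log2 expression values from Affymetrix Clariom S HT arrays, and values under 6 are described here as low.

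AP-1 is a family of dimers rather than a single protein. Fos proteins cannot pair with each other and need a Jun partner, whereas Jun proteins also pair among themselves, and ATF3 and the BATF proteins join Jun proteins through the same leucine zipper. Many of these genes are immediate early genes, transcribed within minutes of a signal through MAP kinases, and AP-1 was first described as the factor that binds the phorbol ester response element. In macrophages AP-1 acts beside NF-κB on cytokine genes after TLR4 activation, and ATF3 is known to restrain that response.

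The labels do not say whether the duplicates came from separate cultures, so p-values measure only the spread between these arrays. The arrays carry RNA of whole wells, in which fewer cells of a kind and less RNA per cell cannot be told apart. Array medians were 5.75 to 5.84, duplicates correlated at 0.985 to 0.987 and other pairs of arrays at 0.947 to 0.984, in both cases over the probe sets of the array. The macrophage label was checked on 10 markers, of which 0 were under 6 on average. The lowest average was that of CD163, at 6.04, and 1 marker was under 6 on each array with epirubicin alone. The mean level of the 10 markers was 13.4 and 13.5 on the untreated arrays, 12.9 and 13.1 with LPS, 13.2 and 13.1 with epirubicin, and 12.7 and 12.8 with both. CD14 and FCGR1A, surface receptors of monocytes and macrophages, were called lower in both epirubicin comparisons, and these 2 with CSF1R in both LPS comparisons. The part of these shifts in the AP-1 values was not tested. Of 9 fibroblast and epithelial markers 7 were under 6 on average, with list means of 4.71 to 5.01 per array, and of 9 lymphocyte markers 6 were, with list means of 4.68 to 5.20. Of these, CD79A, a B cell receptor component, was called higher with LPS alone, by 1.36 (SE 0.32), and the lymphocyte list mean was 5.20 and 4.99 with LPS against 4.84 and 4.83 untreated. The part of this shift in the AP-1 values was not tested either.

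Promoter sequence from RefSeq (GRCh38.p14) was found for 8 of the 10 genes, in 9 windows, since ATF3 has 2 starts in the table; FOSL1 and BATF3 had no entry. The 250 bases before each start were searched on both strands for the 7-letter AP-1 motif TGANTCA and for the 8-letter CRE-type motif TGACNTCA, which AP-1 dimers with ATF partners bind; their different spacing keeps a match of either from containing the other. TGANTCA had no match in the 9 windows, against 6.57% of 35116 promoter windows of the same length. The κB motif and the CArG box, searched in the same way, had none either, against 5.21% and 1.16%. At such shares the lack of a match in 9 windows says little, and bases further upstream were not searched. TGACNTCA matched in JUN, JUND and the first ATF3 window, against 6.87% of all windows. The second ATF3 window had no match. The array values do not tell which ATF3 start was in use, and starts outside these windows were not searched. The 3 windows are shown because JUN and ATF3 are the genes called higher with epirubicin, and JUND holds the other match; capitals mark the match. The JUN window lies at chr1:58784048-58784297 on the minus strand, the ATF3 window at chr1:212565157-212565406 on the plus strand, and the JUND window at chr19:18281623-18281872 on the minus strand.
JUN: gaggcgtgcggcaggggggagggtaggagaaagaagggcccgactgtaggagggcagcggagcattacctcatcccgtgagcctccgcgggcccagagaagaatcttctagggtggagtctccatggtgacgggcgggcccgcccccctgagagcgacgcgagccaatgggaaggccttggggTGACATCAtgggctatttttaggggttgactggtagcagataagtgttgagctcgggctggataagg
ATF3: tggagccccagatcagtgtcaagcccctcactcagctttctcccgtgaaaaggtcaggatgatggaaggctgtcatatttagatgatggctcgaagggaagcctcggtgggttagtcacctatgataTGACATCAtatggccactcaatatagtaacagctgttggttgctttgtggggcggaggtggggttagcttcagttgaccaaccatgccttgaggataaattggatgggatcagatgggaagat
JUND: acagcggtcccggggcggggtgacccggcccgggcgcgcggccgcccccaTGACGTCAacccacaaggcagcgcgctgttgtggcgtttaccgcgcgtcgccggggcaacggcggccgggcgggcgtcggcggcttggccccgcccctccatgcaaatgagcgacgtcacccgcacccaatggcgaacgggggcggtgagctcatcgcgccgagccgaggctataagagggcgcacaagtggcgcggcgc
JUN and ATF3 carried the same 8 letters, TGACATCA, at 67 to 60 bases before the start in JUN and at 123 to 116 in ATF3; 2.37% of all windows hold this form. JUND carried TGACGTCA at 200 to 193 bases before its start, a form held by 1.65% of windows. Both forms were taken from the matches in these genes, so their shares are no test of a shared motif. A match describes the letters and is not evidence of binding.

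**Figure D1:**
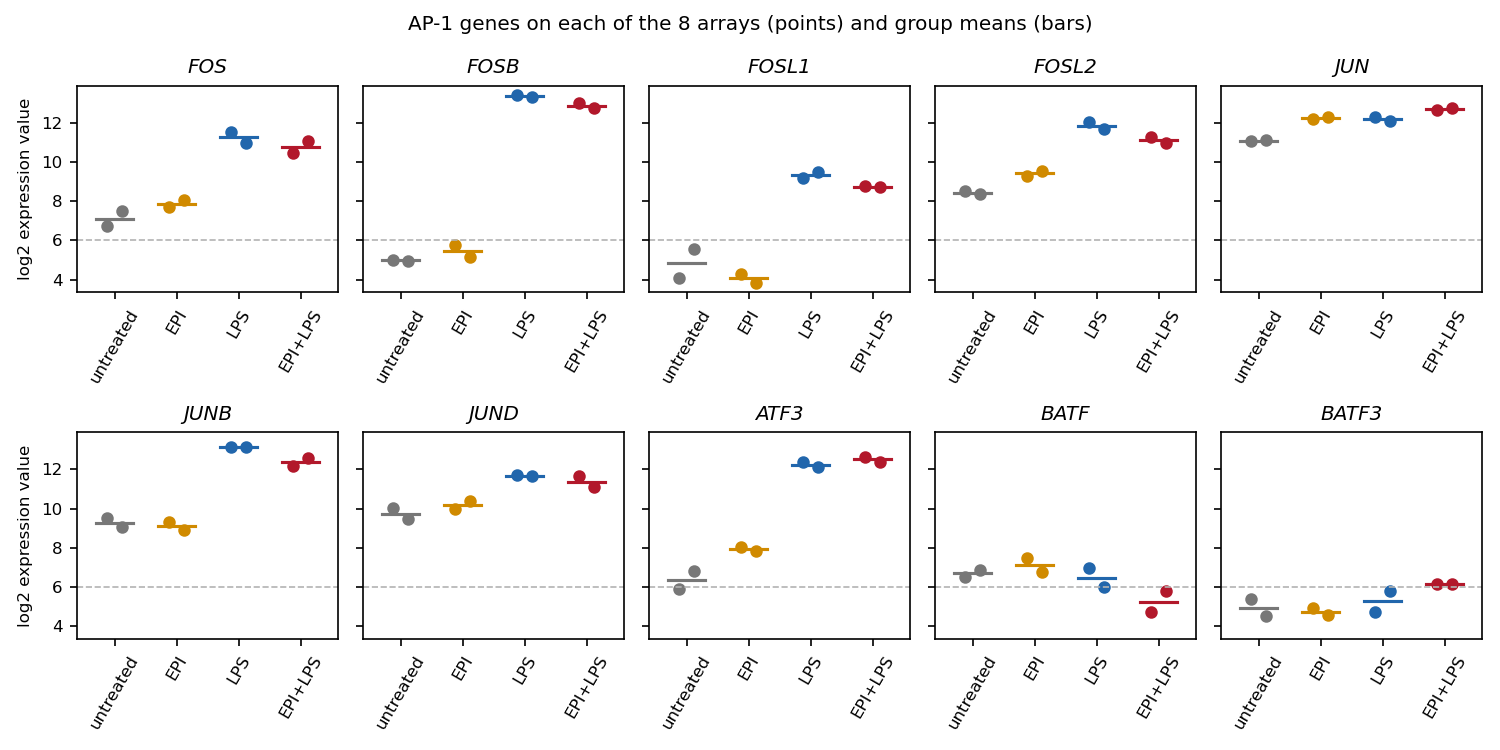
Each panel plots 1 gene, with the log2 expression value on the vertical axis and the 4 groups on the horizontal axis (EPI, epirubicin); points are the 2 arrays of a group, short bars their mean, and the dashed line marks 6. JUN and ATF3 sit higher with epirubicin alone, FOSB moves from low values without LPS to above 12 with it, and BATF and BATF3 stay between 4.50 and 7.48 on all 8 arrays.

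The first comparison asked how epirubicin alone changed the AP-1 genes. ATF3 and JUN were called higher, and no member was called lower. A gene was called at an unadjusted p of at most 0.01 with a change of at least 2-fold, the threshold the study applied to its epirubicin comparisons. The study took its LPS core set at stricter cut-offs, but the LPS effects below were called at the same threshold as epirubicin. For epirubicin alone this threshold called 2 of 10 members higher, against 1.06% of the 21448 probe sets tested, and 0 lower, against 1.2%. The median log2 change of the members was 0.46, against -0.00 over all probe sets. Neither call passed the Benjamini-Hochberg adjustment over all probe sets with the single prior variance used here. With a prior variance that follows the mean level, JUN (adjusted p = 0.000875), ATF3 (adjusted p = 0.00457) and FOSL2 (adjusted p = 0.0429) passed it, against 0.648% of probe sets called higher in that way.

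ATF3, a stress-induced factor that often represses its targets, read 5.89 and 6.79 on the untreated arrays and 8.06 and 7.82 with epirubicin. Both epirubicin arrays lay above both untreated arrays, and the untreated pair differed by 0.90. The change was 1.60 on the log2 scale (SE 0.33, 3.03-fold, adjusted p = 0.208, limma). JUN, the founding Jun protein and the strongest activator among them, read 11.06 and 11.14 untreated and 12.20 and 12.32 with epirubicin. Its duplicates were close, differing by at most 0.17 in any group, and the 2 groups did not overlap. The change was 1.15 (SE 0.22, 2.23-fold, adjusted p = 0.180, limma).

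The other Jun genes did not pass. JUNB, which tempers JUN activity in many cells, read 9.50 and 9.07 untreated and 9.34 and 8.89 with epirubicin, with overlapping groups and a 95% interval of the change from -0.81 to 0.48. JUND, expressed in most resting cells, read 10.03 and 9.46 untreated and 9.96 and 10.37 with epirubicin, again overlapping, with an interval from -0.29 to 1.13. The JUND interval does not leave out a 2-fold rise, while that of JUNB does.

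Among the Fos genes FOSL2 lay just under the fold threshold. FOSL2, which encodes Fra-2, read 8.50 and 8.37 untreated and 9.28 and 9.56 with epirubicin, 0.98 higher on the log2 scale (SE 0.26, 1.98-fold, adjusted p = 0.283, limma). FOS, the classical immediate early partner of JUN, read 6.73 and 7.49 untreated and 7.71 and 8.04 with epirubicin, a difference of 0.77 (SE 0.36, adjusted p = 0.512, limma). FOSB was low on all of these arrays, at 5.01 and 4.94 untreated and 5.77 and 5.16 with epirubicin. FOSL1, which encodes Fra-1, was low too, at 4.10 and 5.56 untreated and 4.29 and 3.84 with epirubicin. The FOSL1 difference of -0.77 (SE 0.44) lay inside the gap of 1.46 between its untreated duplicates. Without untreated replicate 1 FOSL1 was called lower, at -1.50, and the FOS difference was 0.39. Without untreated replicate 2 the FOSL1 difference was -0.040, and without epirubicin replicate 1 FOSL2 was called higher, at 1.12.

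BATF and BATF3, lymphoid and dendritic cell partners of JUN without a transactivation domain, did not separate. BATF read 6.52 and 6.86 untreated and 7.48 and 6.76 with epirubicin, and BATF3 read 5.38 and 4.50 untreated and 4.92 and 4.54 with epirubicin. Both epirubicin arrays lay above both untreated arrays in 5 of the 10 members (FOS, FOSB, FOSL2, JUN and ATF3), against 20.5% of all probe sets, and below them in 0, against 20.9%. At an unadjusted p of at most 0.05, 3 members were higher (FOSL2, JUN and ATF3), against 5.01% of probe sets, and 0 lower, against 5.24%.

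**Figure D2:**
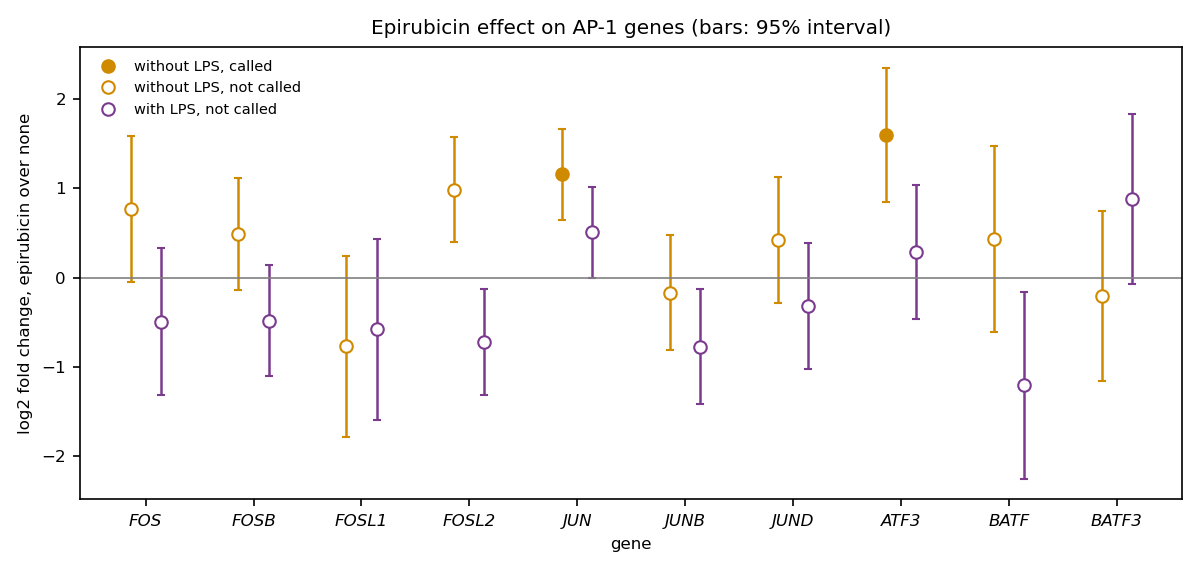
The epirubicin effect on each AP-1 gene, as a log2 fold change over cells without epirubicin, is plotted without LPS and with LPS; bars are 95% intervals from the limma model, and filled points passed the threshold. ATF3 at 1.60 and JUN at 1.15 are the filled points, both without LPS, and with LPS 7 of the 10 points lie below 0 and none is filled.

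The second comparison asked the same in cells given LPS. No member passed the threshold: 0 of 10 were called higher, against 1.25% of probe sets, and 0 lower, against 1.4%. The median member change was -0.49 on the log2 scale, against 0.01 over all probe sets. At an unadjusted p of at most 0.05, 3 members were lower (FOSL2, JUNB and BATF), against 5.25% of probe sets, and 0 higher, against 5.61%. Both arrays with epirubicin and LPS lay below both LPS arrays in 5 members (FOSB, FOSL1, FOSL2, JUNB and BATF), against 20.3% of probe sets, and above them in 3 (JUN, ATF3 and BATF3), against 21.3%.

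All 4 Fos genes had a lower mean with epirubicin and LPS than with LPS alone, by -0.72 to -0.48 on the log2 scale. FOSL2 read 12.06 and 11.67 with LPS and 11.29 and 11.00 with both, a difference of -0.72 (SE 0.26, adjusted p = 0.359, limma). FOSB read 13.41 and 13.31 with LPS and 13.02 and 12.74 with both, a difference of -0.48 (SE 0.27, adjusted p = 0.573, limma). FOSL1 read 9.16 and 9.50 with LPS and 8.78 and 8.72 with both. These 3 genes did not overlap between the groups, while FOS did, at 11.53 and 10.98 with LPS and 10.46 and 11.06 with both.

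The Jun genes did not move as a block. JUNB read 13.17 and 13.15 with LPS and 12.19 and 12.57 with both, a difference of -0.77 (SE 0.28, adjusted p = 0.370, limma). JUN read 12.28 and 12.11 with LPS and 12.66 and 12.74 with both, a difference of 0.51 (SE 0.22, adjusted p = 0.464, limma). The JUN groups did not overlap, and in JUN the highest level of the 4 groups was with both agents. JUND read 11.74 and 11.64 with LPS and 11.64 and 11.09 with both, within the spread of the duplicates.

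ATF3 read 12.38 and 12.10 with LPS and 12.66 and 12.40 with both. The difference of 0.29 (SE 0.33, adjusted p = 0.808, limma) has a 95% interval from -0.46 to 1.04. The estimate of 1.60 without LPS lies above it, but the interval of that estimate, 0.85 to 2.35, overlaps it. Tested directly, the epirubicin effects with and without LPS differed by -1.31 (SE 0.46, adjusted p = 0.626, limma), which was not called. BATF read 6.95 and 5.97 with LPS and 4.74 and 5.77 with both, a difference of -1.21 (SE 0.45, adjusted p = 0.393, limma). The fold was past the threshold and the p was not. The value rested on single arrays: without epirubicin with LPS replicate 1 it was -0.69 and without LPS replicate 1 it was -0.72, while without LPS replicate 2 it was -1.69 and without epirubicin with LPS replicate 2 it was -1.72, which was called lower. BATF3 read 4.72 and 5.80 with LPS and 6.13 and 6.15 with both, a difference of 0.88 (SE 0.42, adjusted p = 0.493, limma), which was 0.34 without LPS replicate 1 and 1.42 without LPS replicate 2.

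LPS alone, the third comparison, raised 8 of the 10 members, against 5.4% of probe sets called higher, and lowered 0, against 6.28%. The median member change was 3.65 on the log2 scale, against -0.05 over all probe sets. All 4 Fos genes and all 3 Jun genes were called, with ATF3. The smallest of the 8 changes was in JUN, which was already at a mean of 11.10 in the untreated cells. For the genes that were low without LPS the fold depends on values near the bottom of the scale, so its size is uncertain.

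Within the Fos genes FOSB changed most, by 8.39 on the log2 scale (SE 0.27, 335-fold, adjusted p = 1.6e-06, limma). FOSL1 rose by 4.50 (SE 0.44, 22.6-fold, adjusted p = 0.000379, limma), also from low untreated values. FOS rose by 4.15 (SE 0.36, 17.8-fold, adjusted p = 0.000198, limma) and FOSL2 by 3.43 (SE 0.26, 10.8-fold, adjusted p = 8.76e-05, limma). In each Fos gene both LPS arrays stood above both untreated arrays by far more than either pair differed.

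Of the Jun genes JUNB rose by 3.87 (SE 0.28, 14.6-fold, adjusted p = 7.25e-05, limma). JUND rose by 1.94 (SE 0.31, 3.85-fold, adjusted p = 0.00512) and JUN by 1.09 (SE 0.22, 2.13-fold, adjusted p = 0.0162). In JUN the LPS arrays and the epirubicin arrays overlapped, so that the order of its levels was untreated, then LPS and epirubicin without separation, then both agents. ATF3 rose by 5.90 (SE 0.33, 59.7-fold, adjusted p = 1.92e-05, limma). BATF and BATF3 were not called, with changes of -0.23 (95% interval -1.27 to 0.81) and 0.32 (-0.63 to 1.28).

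**Figure D3:**
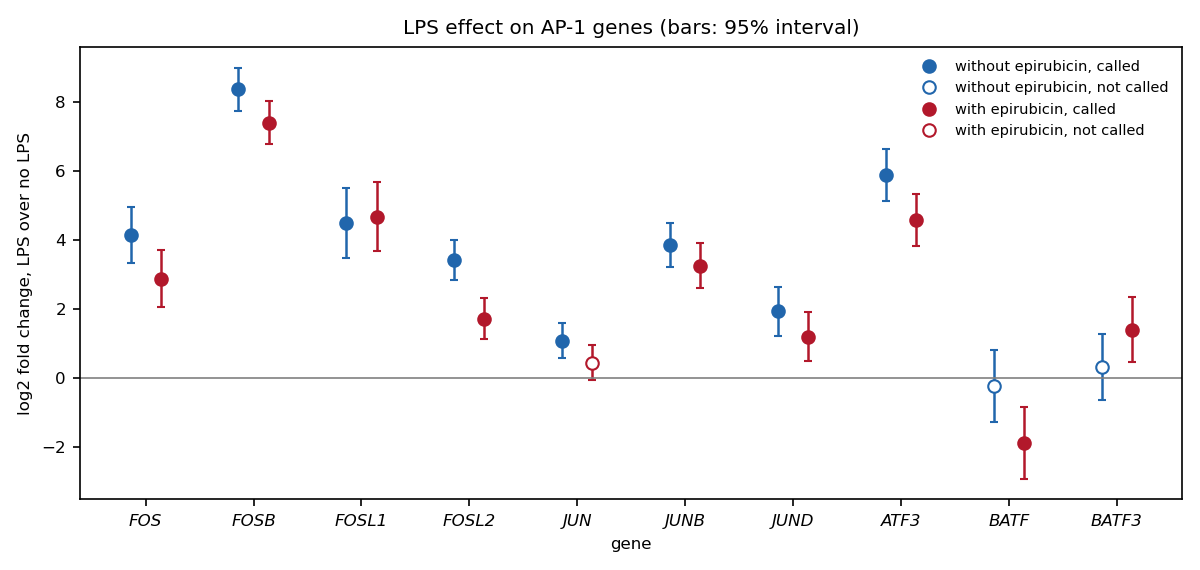
The LPS effect on each AP-1 gene, as a log2 fold change over cells without LPS, is plotted without and with epirubicin; bars are 95% intervals from the limma model, and open points did not pass the threshold. FOSB leads at 8.39 and 7.41, FOSL2 stands at 3.43 and 1.72, and BATF with epirubicin, at -1.87, is the filled point below 0.

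In cells with epirubicin, the fourth comparison, LPS raised 8 members, against 5.46% of probe sets, and lowered 1, BATF, against 6.59%. The median member change was 2.31 on the log2 scale, against -0.03 over all probe sets. FOSB rose by 7.41 (SE 0.27), FOSL1 by 4.69 (SE 0.44), ATF3 by 4.59 (SE 0.33), JUNB by 3.27 (SE 0.28) and FOS by 2.89 (SE 0.36), with adjusted p-values from 3.65e-06 to 0.00135 in limma. FOSL2 rose by 1.72 (SE 0.26, 3.30-fold, adjusted p = 0.00361, limma).

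The remaining calls were closer to the threshold. JUND rose by 1.21 (SE 0.31, adjusted p = 0.0400), BATF fell by 1.87 (SE 0.45, adjusted p = 0.0333) and BATF3 rose by 1.41 (SE 0.42, adjusted p = 0.0660, limma). BATF went from 7.48 and 6.76 with epirubicin to 4.74 and 5.77 with both, and BATF3 from 4.92 and 4.54 to 6.13 and 6.15, so both cross or stay near the low range. JUN, at 12.20 and 12.32 with epirubicin alone, had a difference of 0.45 (95% interval -0.07 to 0.96) and was not called. Without epirubicin replicate 1, and also without epirubicin with LPS replicate 1, the calls of JUND, BATF and BATF3 were lost and 6 members remained. BATF3 was lost without replicate 2 of either group as well.

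The last comparison set the LPS effect with epirubicin against that without it. No member passed an adjusted p of at most 0.05, and over all probe sets 0.00466% did, which is 1 probe set. In 8 of 10 members the LPS change was smaller or more negative with epirubicin, and the median difference was -0.86 on the log2 scale, against 0.01 over all probe sets. At an unadjusted p of at most 0.05, 5 members had a negative difference (FOS, FOSB, FOSL2, ATF3 and BATF), against 3.62% of probe sets, and 0 a positive one, against 3.68%. The untreated, LPS, epirubicin and combined arrays all enter this difference, so it is no separate evidence from the 4 effects above.

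FOSL2 had the smallest p of the members. Its LPS change went from 10.8-fold to 3.30-fold, a difference of -1.71 (SE 0.36, 95% interval -2.54 to -0.87, adjusted p = 0.535, limma). With epirubicin FOSL2 was higher in cells without LPS and lower in cells given LPS. The arrays did not overlap in either pair of groups. With the prior variance that follows the mean level, the adjusted p for FOSL2 was 0.0364, against 0.103% of probe sets with a negative difference called in that way, so the call depends on that choice. FOSB had the same arrangement of arrays on a small scale, with a difference of -0.97 (SE 0.39, adjusted p = 0.645, limma). These 2 members compare with 2.81% of all probe sets whose arrays separate in that way.

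In ATF3 the difference was -1.31 (SE 0.46, adjusted p = 0.626, limma). Its level without LPS was higher with epirubicin, and its levels with LPS were nearly equal. In FOS it was -1.26 (SE 0.51, adjusted p = 0.651) and in BATF -1.64 (SE 0.64, adjusted p = 0.645). FOSL1 at 0.19 (95% interval -1.24 to 1.62) and BATF3 at 1.09 (-0.26 to 2.44) were the members with a positive difference.

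The genes around AP-1 were read from 3 lists, of related bZIP and IRF partners (13 of 17 measured), of kinases and factors upstream (20 of 24) and of known AP-1 targets (19 of 22). With epirubicin alone 0 partners and 0 upstream genes were called, against 1.06% of probe sets called higher and 1.2% lower. Of the targets 2 rose and 1 fell, and the list median was 0.12 on the log2 scale. CCL2, a monocyte chemoattractant, read 5.45 and 6.74 untreated and 8.05 and 9.29 with epirubicin, a change of 2.57 (SE 0.50, adjusted p = 0.180, limma). VEGFA, an angiogenic growth factor, rose by 1.23 (SE 0.22, adjusted p = 0.159, limma). SPP1, which encodes osteopontin, fell by 1.22 (SE 0.23, adjusted p = 0.167, limma).

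With epirubicin and LPS against LPS alone, 1 partner rose, 1 upstream gene fell, and 2 targets rose and 2 fell, against 1.25% of probe sets called higher and 1.4% lower. The partner was DDIT3, the stress factor CHOP, at 6.10 and 5.73 with LPS and 7.43 and 7.17 with both. That change was 1.38 (SE 0.35, adjusted p = 0.206, limma). DDIT3 read 6.69 and 7.60 untreated, so its values with both agents lay between the untreated ones. With LPS alone it was called lower, at -1.23 (SE 0.35, adjusted p = 0.0573, limma). The upstream gene was MAPK13, a p38 kinase, which fell by 1.03 (SE 0.28, adjusted p = 0.248, limma). Among the targets CCL2 rose by 2.04 (SE 0.50, adjusted p = 0.198, limma). The metallothionein MT2A fell by 1.80 (SE 0.28, adjusted p = 0.0815, limma) and SPP1 fell by 1.75 (SE 0.23, adjusted p = 0.0483, limma).

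The LPS calls in these lists are read against 5.4% of all probe sets called higher and 6.28% lower without epirubicin, and 5.46% and 6.59% with it. Without epirubicin 9 of 19 targets rose and 0 fell, led by CXCL8, a neutrophil chemokine, at 8.67 (SE 0.32), VEGFA at 4.86 (SE 0.22) and HBEGF, an EGF family growth factor, at 4.70 (SE 0.26). With epirubicin 9 rose and 1 fell, and the targets called higher were not all the same as without it. The largest rises were in CXCL8 at 9.38 (SE 0.32), the prostaglandin synthase PTGS2 at 5.87 (SE 0.34) and the adhesion receptor CD44 at 4.40 (SE 0.35). Each of these targets was called in both comparisons. Without epirubicin PTGS2 rose by 4.57 and CD44 by 4.66, and with it VEGFA rose by 3.75 and HBEGF by 3.70. Of the 20 upstream genes 4 rose and 3 fell without epirubicin, and 4 rose and 3 fell with it; the genes called lower were not all the same. MAP3K8, the kinase that carries TLR4 signals to ERK, rose by 3.89 (SE 0.27) without and by 4.08 (SE 0.27) with epirubicin. The 13 partners had 4 higher and 2 lower calls without epirubicin and 2 higher and 1 lower with it, with IRF8, a myeloid factor, at 2.12 and 3.12 and MAF, a macrophage bZIP factor, at -2.20 and -2.46. The difference of the LPS effects was called in 0 genes of each list.

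**Figure D4:**
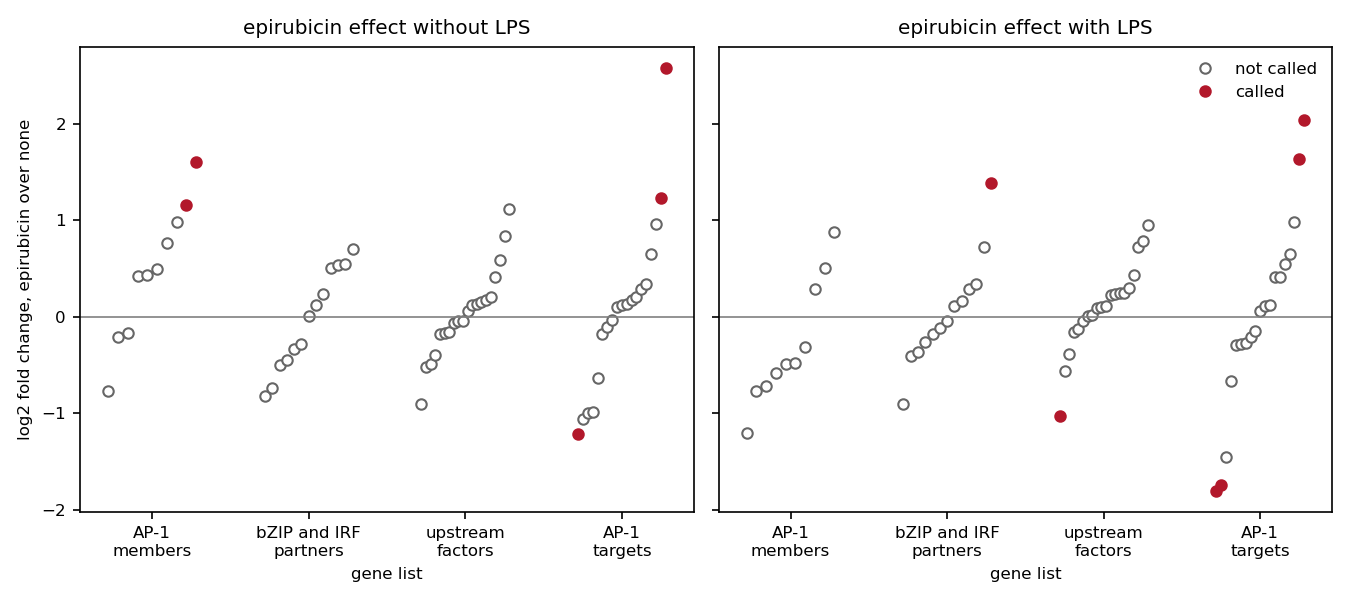
The epirubicin effect, as a log2 fold change over cells without epirubicin, is plotted for each gene of the 4 lists, without LPS on the left and with LPS on the right; points are genes ordered by value within a list, and filled points passed the threshold. Without LPS the filled points are 2 AP-1 members and 3 targets, and with LPS they are 1 partner, 1 upstream gene and 4 targets.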

How the data were processed

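The authors deposited log2 expression values for 8 Affymetrix Clariom S HT arrays, computed with SST-RMA per the methods and RMA per the labels, with background correction, normalization and summary by probe set; no version and no genome build is given in the sources used here. Normalization across arrays assumes that most probe sets do not differ between groups. The values were used as deposited. Of 24351 rows, 2903 control rows were left out and 21448 probe sets tested; 17709 have a single symbol in the platform table. A single limma model (limma 3.58.1 under R 4.3.3) held the 4 groups, with 4 residual and 4.25 prior degrees of freedom, and p-values were adjusted by Benjamini-Hochberg over all probe sets. The threshold for the 4 effects was an unadjusted p of at most 0.01 with a change of at least 2-fold; the difference of the LPS effects was called at an adjusted p of at most 0.05. An exact permutation test of 2 arrays against 2 cannot go below 0.333, so none was used. The fit was tested on simulated data. All 10 members are named; of each other list up to 3 called genes with the largest absolute change are named per comparison. The members and lists were chosen with earlier results of these data known. With 2 arrays per group, the number of arrays limits the precision. Alternatives covered centring, quantile normalization, the prior variance, a filter on low values, the replicate number as a block, a model of only the 4 arrays compared, the thresholds and leaving out each array. Promoter windows and motif shares came from RefSeq tables (GRCh38.p14), and figures were drawn with matplotlib (version 3.10.9).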

Additional observations from a re-analysis of the deposited data

Results flagged for a closer look

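In FOSL2 and FOSB the arrays with and without epirubicin stood in the opposite order without and with LPS: both epirubicin arrays lay above both untreated arrays, and both arrays with epirubicin and LPS lay below both LPS arrays. The same arrangement was seen in 2.81% of all probe sets (602 of 21448). The difference of the LPS effects, tested in limma over all probe sets, was -1.71 on the log2 scale in FOSL2 (adjusted p = 0.535) and -0.97 in FOSB (adjusted p = 0.645). Neither passed the adjusted threshold. The FOSB values without LPS were all under 6.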

How the results depend on the processing

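With 2 arrays per group, a single array moved several calls. Leaving out each array in turn, the number of members called with epirubicin in the presence of LPS went from 0 to 1 (BATF, without epirubicin with LPS replicate 2). With epirubicin alone, the change in such fits was 1.15 to 2.05 in ATF3 and 1.09 to 1.21 in JUN. Arrays with LPS do not enter these 2 estimates. Leaving such an array out kept them at 1.60 and 1.15 and is no check of them. Small effects changed sign: with an array left out, BATF with LPS alone ranged from -0.72 to 0.26, BATF3 with LPS alone from -0.22 to 0.86, BATF3 with epirubicin alone from -0.65 to 0.23, JUNB with epirubicin alone from -0.39 to 0.054, and the FOSL1 difference of the LPS effects from -0.54 to 0.92. No other alternative reversed a member.

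At an adjusted p of at most 0.05, 0 members were called with epirubicin alone under the constant prior variance. With the mean-dependent prior and the same adjusted threshold, a pairing of choices added after seeing the data, 3 were called (JUN, ATF3 and FOSL2), 0 with epirubicin in the presence of LPS, and 8 and 9 for LPS without and with epirubicin. At an unadjusted p of at most 0.05, 3 were called with epirubicin in the presence of LPS and 5 for the difference of the LPS effects. With a mean-dependent prior variance 1 member, FOSL2, passed for that difference (adjusted p = 0.0364), and 1 with the robust form (adjusted p = 0.0345). The BATF3 call for LPS with epirubicin was lost with the filter on low values. The replicate numbers did not pair the arrays: deviations of same-numbered arrays correlated at -0.00943 to 0.0235 over 6 pairs of groups. With the replicate block 8 members were called for LPS with epirubicin, against 9, as BATF3 was lost (adjusted p = 0.0946), and the block changed no other call.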
